A study of Mus musculus with 4 samples.

Results

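Transcripts of the Atf4 stress response and of the cytoplasmic aminoacyl-tRNA synthetases were followed in mouse embryonic stem cells with and without Gcn5, the acetyltransferase encoded by Kat2a that modifies histones as a subunit of SAGA and ATAC. The members are 46 genes taken by symbol from the deposited tables, all 46 of which were found among 23259 genes. They are 6 regulators, 5 stress effectors, 10 enzymes of amino acid and one-carbon synthesis, 7 amino acid transporters, 12 synthetases that Atf4 is known to induce and 6 other synthetases. Of these, 45 had a mean of at least 1 FPKM (fragments counted per unit of transcript length and of sequencing depth) over the 4 libraries and were tested. Slc7a11 was not.

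Atf4 is a bZIP transcription factor whose protein is made when kinases such as Gcn2 (Eif2ak4) and Perk (Eif2ak3) phosphorylate the initiation factor eIF2, in amino acid shortage, endoplasmic reticulum stress and other stress. It raises the transcription of genes for amino acid synthesis and uptake, of many cytoplasmic synthetases, which charge tRNAs with their amino acids, and of feedback factors such as Ddit3, Trib3 and Ppp1r15a. Control of Atf4 is largely translational, so its transcript level is only part of its activity. Pluripotent stem cells grow fast and are known for a high use of serine, glycine and other amino acids.

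RNA sequencing covered 4 clones, 1 library each, from 2 Gcn5 flox/flox embryonic stem cell lines, here founder lines 4 and 6. Both lines were derived from blastocysts and have a normal male karyotype, per the labels. Each line was transiently transfected with a vector that expresses an EGFP-Cre fusion from the EF1α promoter and was sorted after 72 hours. A WT clone (4-1 or 6-1) still carrying the undeleted flox alleles was picked from the GFP-negative cells of each line, and a KO clone (4C2 or 6C4) without exons 3 to 18 of Gcn5 from the GFP-positive cells. WT and KO replicate 1 are the clones of line 4 and replicate 2 those of line 6. Each group is thus 2 clones, and each line is 1 derivation. By the labels, Gcn5 transcript and protein were not detectable in either KO clone. The Gcn5flox cells were kept on mitomycin-treated feeder fibroblasts in high-glucose DMEM with 15% serum, 1000 U/mL of LIF, 2 mM glutamine, 0.1 mM non-essential amino acids and 0.1 mM β-mercaptoethanol.

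The values are FPKM scaled to spike-in RNA by the authors, and the depth behind them is unknown. The summed FPKM of all genes was 680168 to 757931 in WT and 520491 to 538257 in KO. For Kat2a, the files do not say which exons were counted, and they give 38.7 and 34.4 FPKM for WT and 11.5 FPKM for each KO clone (log2 fold change -1.58, SE 0.23, limma adjusted p = 0.0112). The median tested gene lay at -0.44 on the log2(FPKM + 1) scale in KO against WT of line 4 and at -0.18 in line 6. Of 10 stem cell markers, all 10 were at 1 FPKM or more in every library. The summed level of these markers was 4315 to 5363 FPKM in WT and 3394 to 3566 FPKM in KO. The 16 markers of feeder fibroblasts were all detected, with 13 at 1 FPKM or more in every library and none under 0.1 FPKM in all of them. They summed to 561 and 389 FPKM in WT and KO of line 4 and to 469 and 538 FPKM in line 6. In line 4, 0 of the 16 were higher in KO, and in line 6, 15 of 16 were. Afp of endoderm, Elf5 of trophectoderm and Ptprc of blood were under 0.1 FPKM in every library, each as the 1 such marker of its list. Of 5 trophectoderm markers, 3 were at 1 FPKM or more in every library, as were 2 of 4 neural, 0 of 5 endoderm and 0 of 3 blood markers. The trophectoderm markers summed to 59.7 and 57.1 FPKM in WT and KO of line 4 and to 47.7 and 56.9 FPKM in line 6. In each line 4 of these 5 were higher in KO, among them Krt8 and Krt18, and Tfap2c was lower.

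The promoters of several members carry the letters of the C/EBP-ATF response element, the composite element through which Atf4 acts. They are shown so that the letters can be read beside the levels of the same genes. RefSeq promoter windows (GRCm38.p6, 250 bases before to 50 after the start site) matched 34 of the 46 members. They were searched for TGATGNAA on both strands, its reverse complement being TTNCATCA. The motif was in 13 of the 34 members with a window, or 38.2%, against 4.51% of 27025 genes. It was in 5 of 7 Atf4-induced synthetases and in 0 of 3 other synthetases with a window. Among the other roles it was in 2 of 6 regulators, 2 of 5 stress effectors, 2 of 9 enzymes and 2 of 4 transporters. Not every match is printed. No window was matched for Cth, Slc7a5, Slc7a3, Slc1a5, Mars, Nars, Wars, Lars, Cars, Vars, Hars and Rars. A match is a run of letters, and neither Atf4 binding nor Gcn5 binding was measured in these files. The 250 bases before the start of Asns (chr6:7693210-7693459, minus strand) and 30-base stretches around single matches follow, 5′ to 3′ in the direction of the gene, with the motif in capitals.
Asns, upstream: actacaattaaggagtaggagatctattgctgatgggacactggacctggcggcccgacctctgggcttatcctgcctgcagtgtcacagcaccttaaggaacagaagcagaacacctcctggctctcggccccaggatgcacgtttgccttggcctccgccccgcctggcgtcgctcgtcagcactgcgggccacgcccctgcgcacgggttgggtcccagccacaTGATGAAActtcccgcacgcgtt
Chac1 (chr2:119351038-119351067, plus strand): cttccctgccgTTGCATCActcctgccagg
Trib3 (chr2:152344028-152344057, minus strand): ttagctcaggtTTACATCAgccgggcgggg
Nupr1 (chr7:126625562-126625591, minus strand): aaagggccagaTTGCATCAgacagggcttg
Pycr1 (chr11:120643833-120643862, minus strand): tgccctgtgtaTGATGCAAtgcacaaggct
Slc1a4 (chr11:20332699-20332728, minus strand): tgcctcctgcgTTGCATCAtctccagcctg
Gars (chr6:55037960-55037989, plus strand): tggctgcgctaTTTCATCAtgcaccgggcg
Yars (chr4:129189895-129189924, plus strand): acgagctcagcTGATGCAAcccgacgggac
Tars (chr15:11399655-11399684, minus strand): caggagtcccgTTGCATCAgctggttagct
Iars (chr13:49682126-49682155, plus strand): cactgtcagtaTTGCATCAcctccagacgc
The motif letters in Chac1, Nupr1, Slc1a4, Tars and Iars are the same 8, TTGCATCA. Relative to the start site, the match began at -23 in Asns, -193 in Chac1 and 14 in Trib3.

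Between KO and WT, the value of each of the 45 tested members was lower for KO in line 4, where that of 97.6% of tested genes was. In line 6 it was lower for 42 of 45, against 87.7% of tested genes. None of these differences passed limma's test as fitted without a block: 0 of 45 did, where 2 of 11932 genes did, or 0.0168%. At an unadjusted p under 0.05 the count was 14 of 45 lower and 0 higher, against 5.46% and 0.0838% of tested genes. Of the 45, 43 shared the limma adjusted p of 0.445, and Atf5 and Cebpb had higher ones. The median KO/WT ratio of the members was 0.629 in line 4, where that of all tested genes was 0.704, and 0.842 in line 6, against 0.865. Relative to the median gene, 42 of 45 members lay below it in line 4 and 31 in line 6, where 50% of genes do by construction. In both lines together 28 of 45 lay below it, against 27.1% of tested genes. The members are abundant, with a median level of 68.2 FPKM against 9.68 FPKM for all tested genes. Genes of at least 30 FPKM had lower medians of KO minus WT than all tested genes. They were -0.48 in line 4 and -0.24 in line 6 on the log2(FPKM + 1) scale, against -0.44 and -0.185. The counts here are not matched for level. The KO value was at least 1.5-fold lower for 33 members in line 4, against 30.9% of tested genes, and for 0 in line 6, against 3.8%. Relative to the median gene, 37 of 45 members were lower in line 4 than in line 6, against 49.9%. Both KO libraries lay under both WT libraries for 36 of 45 members, against 59.8% of tested genes. These counts are descriptions, since the members were chosen with results of these data known. In bulk RNA, fewer cells of a type and less RNA per cell cannot be told apart.

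**Figure D1:**
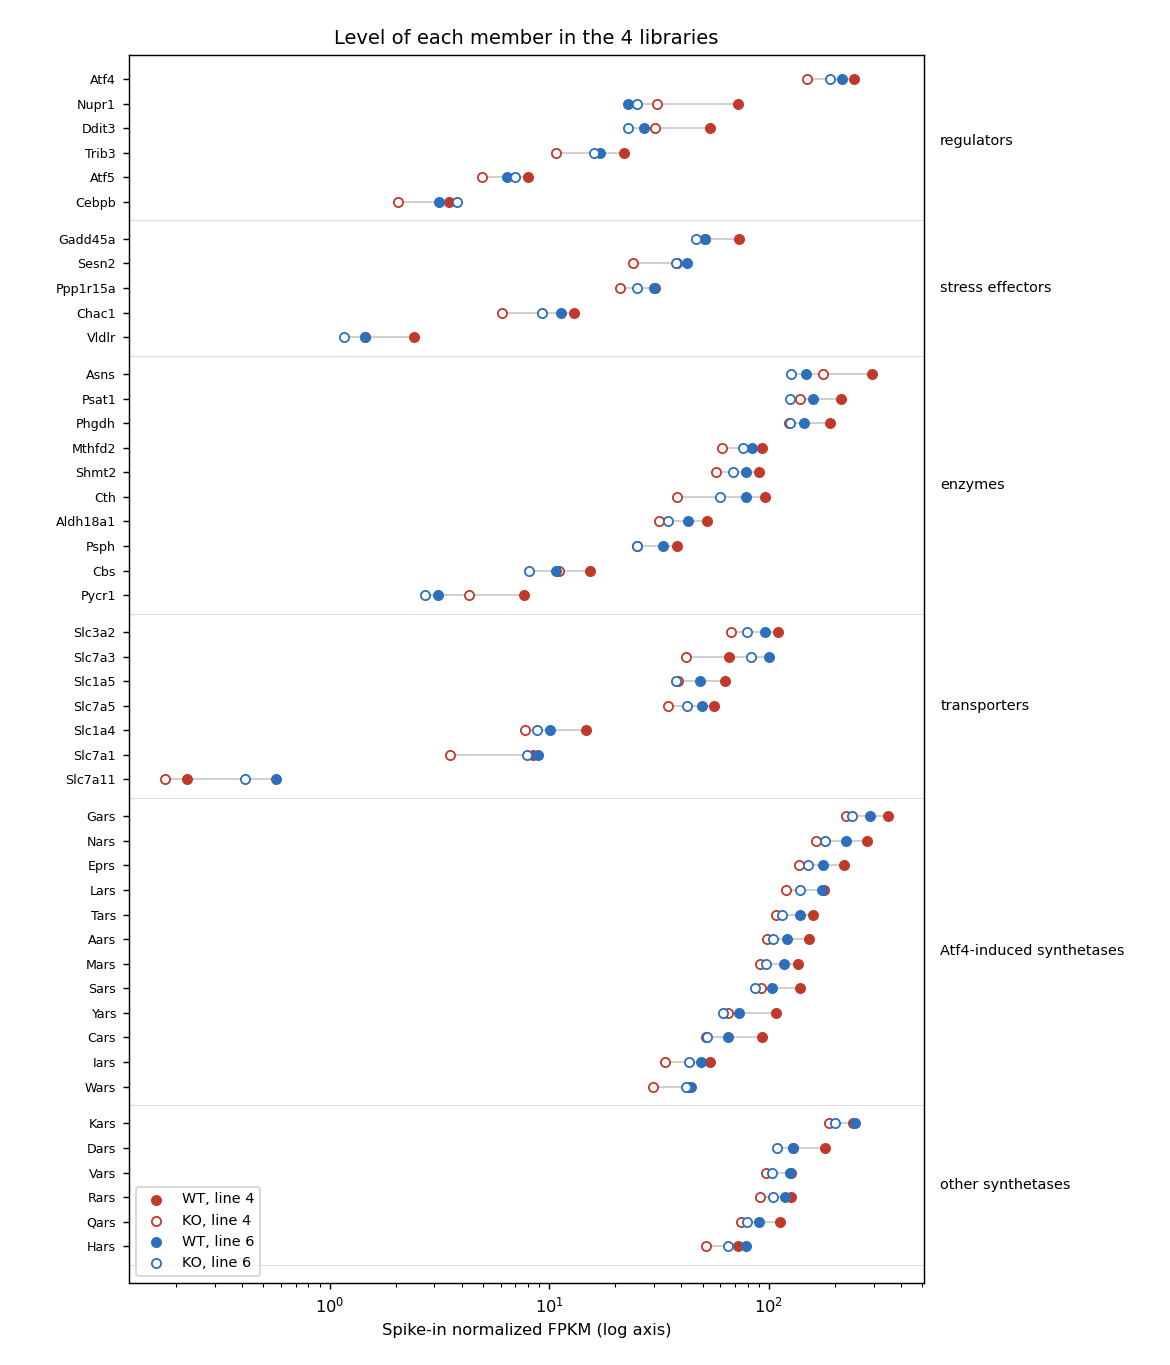
Level of each of the 46 members in the 4 libraries, in spike-in normalized FPKM on a log axis, by role. Filled points are WT and open points KO, red is line 4 and blue line 6. The filled red point of WT replicate 1 is the highest of the 4 for 38 of the 45 tested members.

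For most members the WT clone of line 4 was at the top of the 4 libraries and its KO clone at the bottom. WT replicate 1 was the highest library for 38 of 45 members, where it was highest for 65.5% of tested genes, and KO replicate 1 the lowest for 32, against 60.8%. Both held at once for 25 of 45 members, and for 3598 of 11932 tested genes. After each library was centred on its median gene, WT replicate 1 was still the highest for 25 of 45, against 22.5%, and KO replicate 1 the lowest for 22, against 21.9%. Centred, both held at once for only 6 of 45 members, and for 325 of 11932 tested genes. The summed stem cell markers, too, were highest in WT replicate 1 and lowest in KO replicate 1. Singly, WT replicate 1 was the highest for 7 of the 10 markers. KO replicate 1 was the lowest for 5 and KO replicate 2 for 5. WT replicate 1 highest and KO replicate 1 lowest held at once for 2 of 10. The part of these markers in the order of the members was not tested.

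The KO/WT ratios of the regulators ran from 0.427 to 0.618 in line 4 and from 0.850 to 1.21 in line 6. Atf4 itself had 244 FPKM in WT against 149 FPKM in KO of line 4, and 214 against 190.1 FPKM in line 6. Both KO values were thus under both WT values, and the KO/WT ratio was 0.612 in line 4 and 0.887 in line 6. Atf4 was not past the threshold (log2 fold change -0.44, SE 0.21, limma adjusted p = 0.445). It stayed within -0.61 to -0.26 when single libraries were left out. At a mean in the 96.3rd percentile of tested genes, Atf4 was the most abundant regulator. Ddit3, which encodes the stress-induced factor CHOP, was listed at 54.0 and 30.3 FPKM in WT and KO of line 4 and at 27.0 and 22.9 FPKM in line 6. Its WT and KO values overlapped, because the WT clone of line 6 was below the KO clone of line 4 (log2 fold change -0.52, SE 0.28). Trib3, a pseudokinase that feeds back on Atf4 and Ddit3, stood at 21.97 and 10.8 FPKM in line 4 and 17.0 and 16.1 FPKM in line 6, a ratio of 0.490 and 0.943.

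Nupr1, Atf5 and Cebpb were lower in KO in line 4 and higher in KO in line 6. Nupr1, a small chromatin-associated stress protein, had 72.2 and 30.8 FPKM in WT and KO of line 4, and 22.9 and 25.2 FPKM in line 6. The WT clone of line 4 stood alone at the top, and the other 3 libraries lay between 22.9 and 30.8 FPKM. Over all 4 the log2 fold change of Nupr1 was -0.53, and it was 0.27 without WT replicate 1. Atf5, a paralog of Atf4 that is also under translational control, was at 8.02 and 4.96 FPKM in line 4 and 6.41 and 6.97 FPKM in line 6. For Cebpb, a bZIP partner of Atf4, the values were 3.49 and 2.05 FPKM in line 4 and 3.16 and 3.81 FPKM in line 6, and the log2 fold change of -0.18 turned to 0.15 without KO replicate 1. Relative to the median gene, the 6 regulators had a median of -0.31 in line 4 and 0.20 in line 6. With 1 clone per genotype and line, the difference between the lines in these responses has no test. The summed markers of feeder fibroblasts had KO/WT ratios of 0.693 in line 4 and 1.15 in line 6, and their part in the values of Nupr1, Atf5 and Cebpb was not tested.

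Among the stress effectors, the lowest KO/WT ratio was that of Chac1 in line 4, at 0.468, and that of Vldlr in line 6, at 0.801. Chac1, which degrades glutathione, was listed at 13.0 and 6.07 FPKM in WT and KO of line 4 and at 11.3 and 9.28 FPKM in line 6, so the groups did not overlap (log2 fold change -0.62, SE 0.27, limma adjusted p = 0.445). Sesn2, which restrains mTORC1 when leucine is low, stood at 38.3 and 24.1 FPKM in line 4 and 42.4 and 37.6 FPKM in line 6. The regulatory subunit that directs phosphatase 1 to eIF2, Ppp1r15a, was at 30.2 and 21.0 FPKM in line 4 and 30.1 and 24.99 FPKM in line 6. The WT values of Ppp1r15a were nearly equal in the 2 lines. Gadd45a, a growth arrest protein, stood at 73.3 and 51.2 FPKM in line 4 and 50.9 and 46.5 FPKM in line 6, and its groups overlapped. Vldlr, a lipoprotein receptor, was near the limit of the filter, with 2.43 and 1.45 FPKM in line 4 and 1.45 and 1.16 FPKM in line 6. All 5 were lower in KO in both lines, as were 10300 of 11932 tested genes. Their median lay at -0.064 relative to the median gene in line 4 and at 0.0039 in line 6. With a pseudocount of 0.1 FPKM these medians were -0.17 and -0.062.

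Cth had the lowest KO/WT ratio of all tested members in line 4, and in line 6 it was level with Cbs at the lowest ratio, 0.756. Cth encodes cystathionine gamma-lyase, the enzyme that releases cysteine in the transsulfuration pathway. Its level was 95.8 and 38.3 FPKM in WT and KO of line 4 and 78.9 and 59.6 FPKM in line 6, a ratio of 0.400 and 0.756. Only 0.126% of tested genes had a lower log2 difference in line 4, and 7.17% did in line 6. Without a block Cth did not pass (log2 fold change -0.85, SE 0.24, limma adjusted p = 0.445). With the founder line as a block Cth was the 1 member past the test (limma adjusted p = 0.00419), where 0.796% of tested genes passed. That fit shared 1 spread among genes of like level. The distance between the log2 differences of Cth, -1.30 in line 4 and -0.40 in line 6, thus did not set its SE. On centred values with the block Cth did not pass (limma adjusted p = 0.824), where 0.277% of tested genes did. Cbs, the enzyme before Cth in the pathway, was at 15.4 and 11.1 FPKM in line 4 and 10.8 and 8.13 FPKM in line 6. In line 4 Cbs lay at the median gene, at 0.0057 relative to it, and in line 6 at -0.18.

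Enzymes of asparagine, serine and proline synthesis also had lower values in each KO clone than in its WT counterpart, and none of them passed the test. Asns, asparagine synthetase, was listed at 296 and 176 FPKM in line 4 and at 147 and 127 FPKM in line 6. Its KO clone of line 4 was therefore above the WT clone of line 6, and the groups overlapped (log2 fold change -0.48, SE 0.27, limma adjusted p = 0.445). Without WT replicate 1 the log2 fold change was 0.020, in a fit where the WT clone of line 6 stands against KO clones of both lines. Within line 6, which does not include that library, Asns was still lower in KO, at a ratio of 0.861. The serine pathway enzymes Phgdh and Psat1 were more even. Phgdh, the first enzyme of serine synthesis, was at 191 and 124 FPKM in line 4 and 144 and 124 FPKM in line 6. Psat1, the second, was at 213 and 138 FPKM in line 4 and 158 and 124 FPKM in line 6. Both kept KO under WT in all pairings of libraries. Psph, the last enzyme of serine synthesis, had a ratio of 0.657 in line 4 and 0.762 in line 6. Shmt2 and Mthfd2, of mitochondrial one-carbon metabolism, had ratios of 0.639 and 0.658 in line 4 and of 0.877 and 0.906 in line 6. For Aldh18a1 of proline synthesis they were 0.600 and 0.812. Pycr1, which completes proline synthesis in mitochondria, was at 7.68 and 4.32 FPKM in line 4 and 3.13 and 2.71 FPKM in line 6. Without WT replicate 1 the log2 fold change of Pycr1 was 0.11, and with all 4 libraries it was -0.43. Of the 10 enzymes, 9 lay below the median gene in line 4 and 8 in line 6, with medians of -0.19 and -0.069.

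Transporters of neutral and cationic amino acids had lower values in KO in both lines, and none passed the test. Slc3a2, the heavy chain that brings several exchangers to the membrane, was listed at 110.5 and 67.3 FPKM in line 4 and at 96.5 and 79.7 FPKM in line 6. Its leucine-carrying partner Slc7a5 had KO/WT ratios of 0.620 and 0.857, close to the 0.609 and 0.826 of Slc3a2. Slc1a5, which takes up glutamine, stood at 63.0 and 38.8 FPKM in line 4 and 48.7 and 37.9 FPKM in line 6. Slc1a4, which carries alanine, serine and cysteine, had ratios of 0.531 and 0.867.

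The arginine transporters Slc7a1 and Slc7a3 differed in level and in their KO values. Slc7a1 was listed at 8.41 and 3.53 FPKM in line 4 and at 8.90 and 7.95 FPKM in line 6, so that the KO clone of line 4 stood apart from the other 3 libraries. Slc7a3, the more abundant of the pair, was at 65.6 and 42.1 FPKM in line 4 and 100.3 and 83.3 FPKM in line 6. Both libraries of line 6 exceeded both of line 4 for Slc7a3. Its KO log2 fold change of -0.45 was 0.038 without KO replicate 1. Slc7a11, the cystine carrier that partners Slc3a2, was hardly detected, at 0.223 and 0.178 FPKM in line 4 and 0.572 and 0.410 FPKM in line 6, and was not tested. The 6 tested transporters had medians relative to the median gene of -0.25 in line 4 and -0.056 in line 6.

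**Figure D2:**
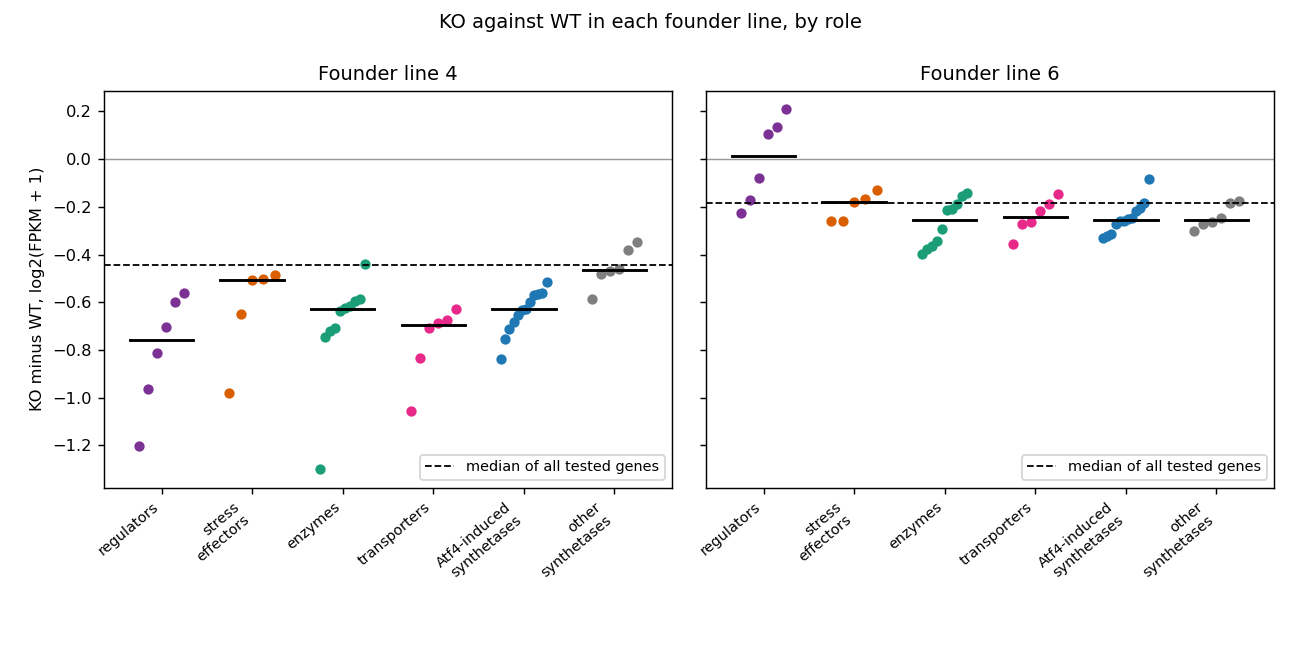
KO minus WT on the log2(FPKM + 1) scale for the 45 tested members by role, in founder line 4 (left) and founder line 6 (right). Each point is 1 gene, black bars are the medians of a role, and the dashed line is the median of all tested genes, at -0.44 in line 4 and -0.18 in line 6. In line 4 the role medians other than that of the other synthetases and the stress effectors lie at least 0.18 under the dashed line.

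The Atf4-induced synthetases had lower KO/WT ratios than the other synthetases in line 4, and in line 6 the medians of both groups were the same. In line 4 the KO/WT ratios of the 12 induced genes ran from 0.555 to 0.693 with a median of 0.645, and those of the 6 others from 0.664 to 0.784 with a median of 0.722. All tested genes had a median ratio of 0.704 there, with 5th and 95th percentiles of 0.540 and 0.899. Of the 12 induced genes, 8 were under every one of the 6 others and 12 under their median. Farsa and Farsb, of the cytoplasmic phenylalanine synthetase, were in neither group. Their line 4 ratios were 0.816 and 0.546, that of Farsb being under all 12 induced genes, so the count of 8 holds only without Farsb. In line 6 the 2 medians were 0.837 and 0.837, against 0.865 for all tested genes. On the log2 scale the induced genes lay -0.16 from the others in line 4 and 0.00071 in line 6. Each line has 1 clone per genotype, so the contrast and its difference between lines have no test.

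A ratio within a library does not depend on a factor by which that library was scaled, and by it WT replicate 1 stood apart. The summed FPKM of the 12 induced synthetases was 2.22 times that of the 6 others in WT and 1.92 times in KO of line 4, and 2.00 and 1.98 times in WT and KO of line 6. The other 3 libraries were thus close together. KO minus WT of the contrast over all 4 libraries was -0.092 on the log2 scale, and it ran from -0.23 without WT replicate 2 to -0.013 without WT replicate 1.

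**Figure D3:**
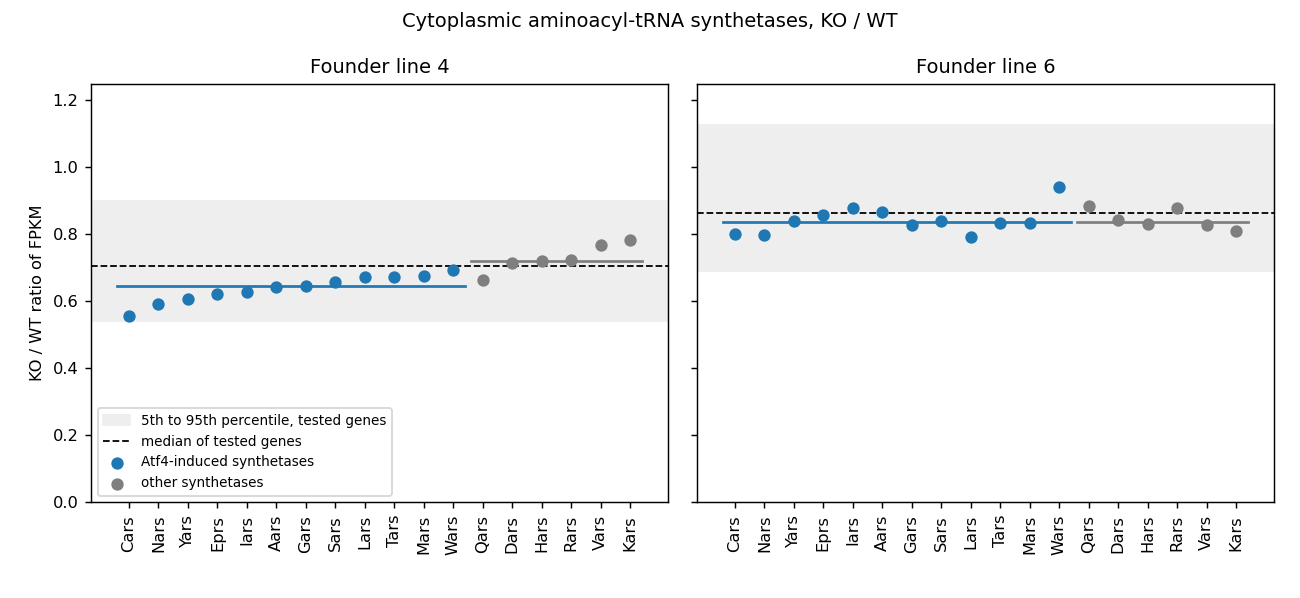
KO/WT ratio of FPKM for each cytoplasmic synthetase in founder line 4 (left) and line 6 (right), with Atf4-induced genes in blue and the others in grey. Coloured lines are group medians, the dashed line is the median of all tested genes and the grey band their 5th to 95th percentile. In line 4 the blue median of 0.645 is under the grey one of 0.722, and in line 6 both are 0.837.

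Within the induced group, Cars and Nars had the lowest ratios in line 4. Cars, which charges cysteine tRNA, was listed at 93.4 and 51.9 FPKM in line 4 and at 65.1 and 52.1 FPKM in line 6 (log2 fold change -0.57, SE 0.23, limma adjusted p = 0.445). Nars, for asparagine, was at 278 and 164.5 FPKM in line 4 and 225 and 179.5 FPKM in line 6, a ratio of 0.591 and 0.799. Gars, for glycine, was the most abundant synthetase, at 349 and 226 FPKM in line 4 and 288 and 238 FPKM in line 6. The bifunctional enzyme for glutamate and proline, Eprs, stood at 219 and 136 FPKM in line 4 and 176 and 151 FPKM in line 6. For Yars, the tyrosine enzyme, the values were 107 and 65.0 FPKM in line 4 and 73.5 and 61.8 FPKM in line 6. Sars, the serine enzyme, was at 139 and 91.6 FPKM in line 4 and 103.5 and 86.9 FPKM in line 6. None of the 12 passed the test. All 12 had both KO libraries under both WT libraries, as did all 6 other synthetases, against 59.8% of tested genes.

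The remaining induced synthetases spanned a narrow range. Iars (isoleucine), Aars (alanine), Lars (leucine), Tars (threonine) and Mars (methionine) had ratios of 0.628, 0.643, 0.672, 0.673 and 0.674 in line 4. In line 6 their ratios were 0.878, 0.866, 0.793, 0.834 and 0.835. Wars, the tryptophan enzyme, which interferon is known to induce as well, was the highest of the 12 in both lines, at 0.693 and 0.942.

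Of the synthetases not grouped as Atf4-induced, Kars and Vars had the highest ratios in line 4. Kars, for lysine, was listed at 240.5 and 189 FPKM in line 4 and at 246 and 199 FPKM in line 6, so the WT and KO values were nearly the same in the 2 lines (log2 fold change -0.33, SE 0.20, limma adjusted p = 0.445). Vars, for valine, stood at 126.5 and 97.04 FPKM in line 4 and 125 and 103.5 FPKM in line 6. Dars, for aspartate, was at 180.4 and 129 FPKM in line 4 and 129 and 109 FPKM in line 6. Hars, for histidine, was at 72.2 and 51.9 FPKM in line 4 and 78.8 and 65.5 FPKM in line 6. Qars, for glutamine, was the lowest of the 6 by ratio in line 4, at 112 and 74.5 FPKM, with 89.8 and 79.5 FPKM in line 6. Rars, for arginine, had ratios of 0.724 and 0.878. The 6 lay at -0.020 relative to the median gene in line 4 and -0.070 in line 6. With Vars counted as induced, the line 4 contrast was -0.16 as before.

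Membership of the multisynthetase complex, a split made after the values were seen, is given for both lines. The 4 induced members of the complex (Eprs, Iars, Lars and Mars) had a median ratio of 0.650 in line 4 and 0.847 in line 6, and the 8 induced genes outside it had 0.645 and 0.837. For the 4 other members of the complex (Qars, Rars, Kars and Dars) the medians were 0.720 in line 4 and 0.860 in line 6, and for Vars and Hars 0.743 and 0.829.

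The founder lines differed in 5 members. In limma with genotype as a term, 5 of 45 passed between line 6 and line 4, with 1 higher and 4 lower in line 6. Of all tested genes, 9.13% passed, 3.67% higher and 5.46% lower. The share among the members is near that background. Nupr1 had a log2 difference of -0.95 (SE 0.20, limma adjusted p = 0.000165), Pycr1 -0.79 (SE 0.22, adjusted p = 0.00616), Asns -0.74 (SE 0.18, adjusted p = 0.00181) and Ddit3 -0.68 (SE 0.21, adjusted p = 0.0151). Slc7a3 was higher in line 6, at 0.79 (SE 0.19, adjusted p = 0.00166). Both libraries of line 6 were under both of line 4 for 6 tested members, these 4, Gadd45a and Cbs, against 17.4% of tested genes, and above them for 1, against 16.3%. In the WT clones Asns was 0.498 times as high in line 6 as in line 4, and in the KO clones 0.721 times. For Pycr1 the ratios were 0.408 and 0.628, for Ddit3 0.499 and 0.755, for Nupr1 0.317 and 0.817 and for Slc7a3 1.53 and 1.98. These calls rest on few samples. With 1 library left out, line was the only term that could be fitted. Then all 5 lost the call without WT replicate 2 or KO replicate 2 (limma adjusted p = 0.9999 for Asns, Ddit3, Nupr1, Pycr1 and Slc7a3). Without WT replicate 1, the differences of Nupr1, Asns, Ddit3 and Pycr1 were -0.35, -0.36, -0.28 and -0.44 and did not pass, with limma adjusted p of 0.547, 0.656, 0.647 and 0.224. Slc7a3 did not pass without KO replicate 1 (limma adjusted p = 0.442). On centred values, an alternative chosen after the data were seen, all 5 passed in each of these fits except Nupr1 without WT replicate 2 (limma adjusted p = 0.0651).

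A further 7 members passed the line test after each library was centred on its median gene. Then 12 of 45 passed, against 29.6% of tested genes, so the share among the members was again near background. Those were the 5 above, Sesn2, Slc7a1, Wars and Hars with higher levels in line 6, and Gadd45a, Cbs and Dars with lower ones. Centred differences of these 7 ran from -0.40 for Cbs to 0.57 for Slc7a1, with limma adjusted p of 0.0177 to 0.0466. As deposited, none of the 7 passed (adjusted p of 0.124 to 0.559). Atf4 differed little between the lines, by 0.081 as deposited and 0.12 centred, and did not pass (limma adjusted p = 0.856 and 0.305). The role medians of line 6 minus line 4 in WT were -0.32 for regulators, -0.18 for stress effectors, -0.35 for enzymes, -0.19 for transporters, -0.29 for induced and -0.054 for other synthetases, with -0.14 for all tested genes. In KO the same medians, in that order, were 0.38, 0.24, 0.00063, 0.26, 0.10 and 0.093, with 0.12 for all tested genes.

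**Figure D4:**
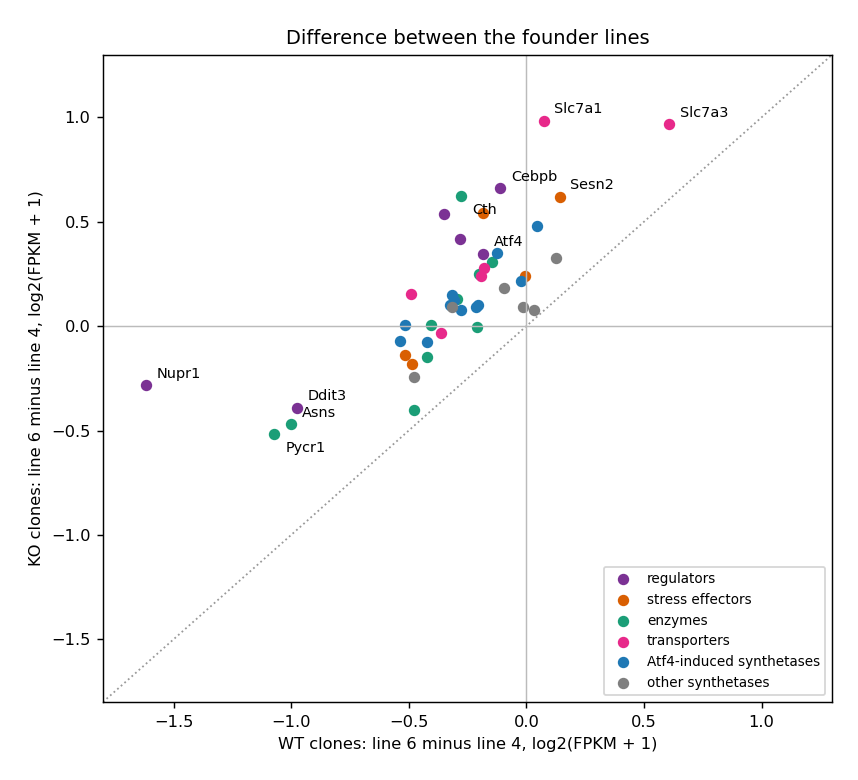
Line 6 minus line 4 on the log2(FPKM + 1) scale in the WT clones (x axis) and in the KO clones (y axis), 1 point per tested member, coloured by role. The dotted line marks equal differences. Nupr1, Asns, Pycr1 and Ddit3 lie at the lower left and Slc7a3 at the upper right, and Slc7a1 differs in the KO clones and hardly in the WT clones.

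Across members, line differences in WT and KO had a higher correlation than KO effects in the 2 lines did. For each single gene, the distance between the 2 values is the same in either pair by construction. Over the 45 tested members the line difference in WT and that in KO correlated at Pearson's r = 0.76 and Spearman's rho = 0.77, and over all tested genes at 0.70 and 0.77. The KO effects of the 2 lines correlated at r = -0.11 and rho = -0.055 over the members, and at 0.11 and 0.11 over all tested genes. These values are over genes, which are not independent replicates. The 2 axes of each pair share no library, and every gene on an axis shares the same 2 libraries and their scaling.

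Further genes of the pathway were counted from lists of known components, and in limma without a block 0 of them passed between KO and WT. Of 22 tested further Atf4 targets, such as Ddit4, Cebpg and Xpot, 19 lay below the median gene in line 4 and 10 in line 6, with medians of -0.14 and 0.0068. The lowest p was that of Stc2, a secreted stress glycoprotein, at 12.5 and 6.32 FPKM in line 4 and 10.2 and 7.38 FPKM in line 6 (log2 fold change -0.65, limma adjusted p = 0.445). Eif4ebp1, the translation repressor that mTORC1 inactivates, was the most abundant of these, at 223 and 157 FPKM in line 4 and 204 and 178 FPKM in line 6. At an unadjusted p under 0.05, 3 of the 22 were lower, against 5.46% of tested genes.

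The medians of components upstream of Atf4, and of the other unfolded protein response arms, lay near the median gene. The 9 genes of eIF2 kinases, phosphatase and their regulators had medians of -0.017 and -0.029 relative to it in lines 4 and 6, and the 10 genes of eIF2, eIF2B and their partners 0.018 and -0.030. Ppp1ca, a catalytic subunit of phosphatase 1, had both the highest level and the lowest p of the former (log2 fold change -0.39, limma adjusted p = 0.445). Impact, an inhibitor of Gcn2 activation named after its values were seen, had a KO/WT ratio of 0.698 in line 4 and 1.65 in line 6, with 99.4 and 69.4 FPKM in line 4 and 48.4 and 79.95 FPKM in line 6. Among the genes of eIF2 and eIF2B, Eif2s2 was the most abundant and Eif2s3x had the lowest p, at -0.25 and -0.38. The 18 genes of the other unfolded protein response arms lay at -0.053 and -0.000072. Hsp90b1, a chaperone of the endoplasmic reticulum, led them in level and p, at 453 and 288 FPKM in line 4 and 363 and 307 FPKM in line 6.

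Synthetases of mitochondria and other parts of the translation and amino acid machinery gave medians in line 4 that were closer to the median gene than that of the induced cytoplasmic synthetases, at -0.18. The 17 mitochondrial synthetases lay at -0.034 in line 4 and -0.083 in line 6. Iars2 was the most abundant, and Yars2 had the lowest p (log2 fold change -0.50, limma adjusted p = 0.445). The 5 genes of the multisynthetase scaffold and the phenylalanine synthetase lay at 0.074 and -0.055. Farsb of that list stood lower, at 143 and 78.2 FPKM in line 4 and 110 and 91.5 FPKM in line 6. The 5 elongation factors lay at -0.098 and -0.19. Eef1a1, which brings charged tRNA to the ribosome, was the most abundant of them, and Eef1b2 had the lowest p of the list (log2 fold change -0.67, limma adjusted p = 0.445, and 0.0191 with the founder line as a block).

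Lists of redox and nutrient sensing lay near the median gene as well. The 10 Nrf2 and glutathione genes had medians of -0.033 and 0.088 relative to it in lines 4 and 6, and its most abundant gene, Txnrd1, and that of lowest p, Hmox1, both had a log2 fold change of -0.34. For 13 tested genes of mTORC1 and amino acid sensing the medians were 0.025 and 0.0050. Rheb, the activator of mTORC1, was the most abundant and Tsc2, its inhibitor, had the lowest p, at -0.31 and -0.62. The 10 tested genes next to cysteine and serine synthesis lay at 0.048 and -0.060, with Ahcy and Shmt1 at -0.34 and -0.44 (limma adjusted p = 0.445 for all of these).

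The stem cell markers themselves had medians of -0.18 in line 4 and -0.085 in line 6 relative to the median gene, and the feeder fibroblast markers 0.057 and 0.42. The median of the 45 members was -0.18 and -0.041. The part of either cell type in the values of the members was not tested.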

How the data were processed

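The deposited unit is FPKM, scaled to spike-ins, per the file headers. How the spike-ins entered the scaling is not given in the labels or headers. The submitters' processing notes list Bowtie 0.12.8, TopHat2 2.0.9, affy, HTSeq, edgeR and the build mm9, with no roles. By the labels' protocols 1 µg of RNA received 2 µL of ERCC RNA at a 100-fold dilution, as mix 1 or 2, before stranded library preparation with ribosomal RNA removal. Of the 23376 entries in each table, 92 are spike-ins, and 25 were without a partner in the other tables. Analyses used log2(FPKM + 1), a scale on which low genes change less than they do in FPKM. The 11932 genes averaging 1 FPKM or more entered limma 3.58.1 under R 4.3.3, with lmFit and a trended eBayes. Tests were two-sided, p-values were adjusted by Benjamini-Hochberg over those genes, and 0.05 was the threshold. The code was tested on simulated data.

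KO was compared with WT without a block. The lines were compared with genotype as a term, in a fit whose prior df was infinite, so that genes of like level shared 1 spread. Clone names in the labels tie each replicate number to a founder line, so the numbers pair the samples. Deviations of WT and KO of 1 line correlated at r = 0.70 across 11932 genes. With 2 clones a group this is the same value as the correlation of line differences in WT and KO above, not a separate check. With 2 clones a group, p-values of the fit without a block rest on a spread between clones. At a prior df of 16.38, that spread came largely from genes of like level and only in part from the gene itself. The block fit on deposited values holds the same terms as the line fit, and so the same shared spread. In those 2 fits the p-value of a gene does not reflect how far its own KO effects differed between the lines.

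Members and lists were chosen with earlier results of these data known. All members are named. Values in each library are given for Atf4 and, in each role, for the 3 most abundant members, the 2 of lowest p between genotypes, the 2 of lowest p between lines and those past a test. Atf5, Cebpb, Cbs and Impact were added after their values were seen. Of each pathway list, the most abundant gene and that of lowest p are named. Alternatives were another pseudocount, no filter, centred or quantile-normalized values, a robust spread, the block and leaving out each library. Some promoter matches are not reported here.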

Additional observations from a re-analysis of the deposited data

Results flagged for a closer look

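Effects of opposite sign in the 2 founder lines drew attention, none of which was tested, since there is 1 clone per genotype and line. KO minus WT on the log2(FPKM + 1) scale was -1.20 in line 4 and 0.13 in line 6 for Nupr1, -0.60 and 0.10 for Atf5, and -0.56 and 0.21 for Cebpb. Set against the median gene, the regulators had a median of -0.31 in line 4 and 0.20 in line 6, and the stress effectors of -0.064 and 0.0039. The contrast of Atf4-induced minus other synthetases was -0.16 in line 4 and 0.00071 in line 6. The line 6 values of the stress effectors and of this contrast hardly differ from no effect, so these are not opposite effects. With a pseudocount of 0.1 FPKM the stress effector median of line 6 was -0.062.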

How the results depend on the processing

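Depth is unknown, so no counting error could be given, and 2 clones a group limit every test. KO against WT called 2 genes and 0 members. With no filter, centred values or quantile normalization it called 0 genes each. With the replicate block, which pairs clones of 1 founder line, it called 95 genes and 1 member (91 and 1 with a robust spread), and 33 genes and 0 members on centred values. Of the genes named, the block changed no call but those of Cth and Eef1b2, to which the robust spread added Eef1a1. Leaving out 1 library gave 0 to 133 genes and 0 to 2 members. The 2 were Asns and Nupr1 without WT replicate 2 (limma adjusted p = 0.0425 and 0.0182), a fit in which Eef1a1 and Eef1b2 passed too.

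The log2 fold change of KO against WT turned positive on centred values, with the block or without, for Atf5 (0.059), Cebpb (0.13), Wars (0.0060) and Eif2s2 (0.060). With quantile normalization it did so for Atf5 (0.044), Cebpb (0.091), Gadd45a (0.026), Wars (0.052), Vars (0.050), Kars (0.071), Rars (0.060), Eif2s2 (0.15), Eif4ebp1 (0.038), Txnrd1 (0.033), Hmox1 (0.0016), Iars2 (0.00072), Rheb (0.050) and Ahcy (0.074). Leaving out single libraries moved Asns from -0.98 to 0.020, Pycr1 from -0.97 to 0.11, Nupr1 from -1.34 to 0.27, Slc7a3 from -0.93 to 0.038 and Cebpb from -0.51 to 0.15. Each such fit leaves a single clone in a group, so the difference between the lines enters the fold change. Within each line, Asns, Pycr1 and Slc7a3 were lower in KO, and Nupr1 and Cebpb were higher in KO in line 6 only. The cause of these shifts was not tested.

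Line 6 against line 4 called 1089 genes and 5 members. The counts were 0 and 0 with no filter, 3531 and 12 on centred values, 3539 and 11 with a robust spread too, 3420 and 11 with quantile normalization, and 236 and 0 without the genotype term. With 1 library left out they ran from 7 to 2717 and from 0 to 10. The highest counts were on centred values, with 2235 and 10 genes and members without WT replicate 1, 2717 and 8 without KO replicate 1, 2527 and 8 without WT replicate 2 and 2245 genes without KO replicate 2. On deposited values 7 genes passed without WT replicate 2 and 21 without KO replicate 2. In those fits Sars ran from -0.55 to 0.049, Yars from -0.66 to 0.051 and Hars from -0.0075 to 0.46. The contrast of induced and other synthetases ran from -0.23 to -0.013. Of 12 role medians relative to the median gene, 6 in each line, 9 moved by more than their SD between the lines with no filter, 4 with quantile normalization and 3 each with a pseudocount of 0.1, none or another reference. With no filter they ran from -0.54 for regulators to -0.25 for other synthetases in line 4, and from -0.19 for other synthetases to 0.074 for regulators in line 6, since the genes added change the median gene. The stress effectors moved from 0.0039 to -0.12 in line 6 with no filter, to -0.062 with a pseudocount of 0.1 and to -0.056 with quantile normalization. The other synthetases of line 4 moved from -0.020 to 0.029 with a pseudocount of 0.1, 0.024 with quantile normalization, 0.018 with genes of at least 30 FPKM as reference, and 0.035 with no pseudocount, the last 2 chosen after the data were seen. Against the genes of at least 30 FPKM, the line 6 medians were 0.25 for regulators and 0.059 for stress effectors. They were -0.014 for enzymes, -0.0012 for transporters and -0.014 for both synthetase groups. In KO against WT, no other named gene changed direction, and the pseudocount of 0.1 changed no call of a named gene.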
